A study of Homo sapiens with 4 samples.

Results

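E2F factors and pocket proteins are the transcriptional switch that lets a cell pass from G1 into DNA replication. They were followed here in Kit225 cells, a human leukaemia line of T cell origin that needs interleukin-2 to grow, after exposure to NC1153, a compound described as blocking JAK3 signalling. The members were 10 genes: the activators E2F1, E2F2 and E2F3, the repressors E2F4, E2F5, E2F6, E2F7 and E2F8, and the pocket proteins RB1 and RBL1. They were found as the Affymetrix HG-U133 Plus 2.0 probe sets that the platform annotation assigns to 1 gene only, which gave 21 of the 54613 probe sets tested and 10 of 19775 genes. The brightest probe set by mean log2 signal stands for each gene, and the other 11 are given beside it. The NC1153 group (n = 2 arrays) is labelled 25 mM, a dose whose unit could not be checked, and the DMSO group (n = 2 arrays) is labelled 0.1% DMSO. Exposure lasted 12 hours in both groups, and all cells were grown with interleukin-2 at 20 U/ml. Nothing states that replicates were separate cultures, so p-values cover no more than the variation among these 4 arrays, and that variation may be technical. In bulk RNA, fewer cells of a kind and less RNA per cell cannot be told apart.

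In the textbook scheme, pocket proteins hold E2F factors inactive in early G1, and cyclin D with CDK4 or CDK6, followed by cyclin E with CDK2, phosphorylates the pocket proteins and frees the activators. E2F1, E2F2 and E2F3 bind RB1 and drive genes of DNA replication, whereas E2F4 and E2F5 bind the pocket proteins RBL1 and RBL2 and silence the same genes in resting cells. E2F6 represses without a pocket protein, as part of a polycomb complex. E2F7 and E2F8 bind DNA without a DP partner, are themselves induced by E2F activity late in G1 and then repress E2F targets. In T cells this switch is set by interleukin-2, which raises D-type cyclins and lowers the inhibitor p27.

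Letters of the E2F consensus were looked for in RefSeq promoter entries (GRCh38.p14, from 250 bases before to 50 bases after a gene's start). The words searched on both strands were TTTGGCGC, TTTCCCGC, TTTGCCGC and TTTCGCGC, and 3.31% of all 35116 entries held at least 1 of them. Of the members, 8 had an entry, and E2F5 and E2F8 had none. Among these 8, E2F1, E2F2, E2F3 and RBL1 held an E2F word, against 3.99% of all genes with an entry. The first base of each word lay at -33 and -20 from the start in E2F1, at -42 in E2F2, at -53 in E2F3 and at -26 and -16 in RBL1. The stretches of 60 bases that hold them are shown because these members hold letters of the family's own consensus, with the words in capitals, which describe a match and not a bound site. E2F3 has a second entry without a word:
E2F1, chr20:33686379-33686438, minus strand: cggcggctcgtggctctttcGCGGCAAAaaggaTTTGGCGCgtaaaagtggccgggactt
E2F2, chr1:23531242-23531301, minus strand: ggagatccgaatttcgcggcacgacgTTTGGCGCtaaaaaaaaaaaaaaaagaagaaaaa
E2F3, chr6:20401800-20401859, plus strand: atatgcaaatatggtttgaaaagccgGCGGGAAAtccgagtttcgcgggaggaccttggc
RBL1, chr20:37095985-37096044, minus strand: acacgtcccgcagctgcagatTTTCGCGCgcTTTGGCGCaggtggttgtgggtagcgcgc

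The entries of E2F4, E2F6, E2F7 and RB1 held none of these letters, which says nothing of other sites or of sites outside the window. For RB1 the only entry was chr13:48476200-48476499. Whether it lies at the main start of RB1 was not checked, so it does not show that the RB1 promoter lacks a word. The entry of E2F7 is shown whole, since E2F7 is the called member that has an entry:
E2F7, chr12:77065520-77065819, minus strand: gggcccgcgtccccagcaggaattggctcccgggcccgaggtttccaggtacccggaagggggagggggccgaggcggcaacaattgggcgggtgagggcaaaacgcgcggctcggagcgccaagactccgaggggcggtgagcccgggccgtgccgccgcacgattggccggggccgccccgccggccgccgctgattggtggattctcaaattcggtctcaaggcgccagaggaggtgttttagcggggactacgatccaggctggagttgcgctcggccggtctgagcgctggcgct

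Values are linear signals as the authors deposited them. A change is a log2 difference, NC1153 minus DMSO, and a gene was called where limma's Benjamini-Hochberg adjusted p over all 54613 probe sets was under 0.05. Median signals of all probe sets were 88.6 and 61.8 on the NC1153 arrays, against 69.7 and 69.6 on the DMSO arrays. Per the file header, scaling factors were 6.68 and 2.97 for NC1153, against 2.88 and 2.66 for DMSO, with the largest factor for replicate 1 of NC1153. The header's ratio of 3'-end to 5'-end signal of beta-actin, a measure of RNA length, was 4.47 and 3.89 with NC1153, against 3.54 and 3.82 with DMSO. The same ratio for GAPDH was alike in the groups, at 0.93 and 0.92 with NC1153, against 0.91 and 0.94 with DMSO. The mean log2 signal of 18 spiked-in control probe sets was 12.00 and 11.66 with NC1153, against 11.46 and 11.34 with DMSO. The part of these differences in the results below was not tested. Of 8 T cell markers, CD2 and CD4 were above the array's median signal on all 4 arrays. The other 6, CD3D, CD3E, CD3G, LCK, CD5 and CD7, were not, so most defining T cell markers gave no clear signal. Summed over the 8, the T cell signal was 11452 and 8918 with NC1153, against 15643 and 13992 with DMSO, and none of the 8 was called. Most of that sum was CD2, with 9145 and 6388 with NC1153, against 12528 and 10446 with DMSO. The dimmer markers did not share one direction: CD3G had a change of -2.08, whereas CD3E (1.25), CD3D (1.77) and CD7 (1.17) had positive ones. By the same measure 2 of 3 B cell, 0 of 5 myeloid, 1 of 1 erythroid, 1 of 3 epithelial and 0 of 3 fibroblast markers were above the median on all 4 arrays, and none was called.

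Of the 10 members, the atypical repressors E2F8 and E2F7 fell, none rose and 8 did not pass. By the same rule, 2.84% of all 19775 genes were called lower and 3.09% higher. An unadjusted p under 0.05 was reached by 5 of the 10, and by 20.3% of all genes. All 10 representative probe sets were brighter than the array median on all 4 arrays. When dim probe sets were left out before the fit, 7.41% of the 11940 remaining genes were called lower, and E2F4 joined E2F7 and E2F8. The groups of arrays did not overlap for 9 of the 10 members, 7 with NC1153 below DMSO and 2 above. Of all genes, 48.3% did not overlap, 23.8% with NC1153 below and 24.5% above. The median change was -0.55 over the 10 members and 0.0020 over all genes.

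**Figure D1:**
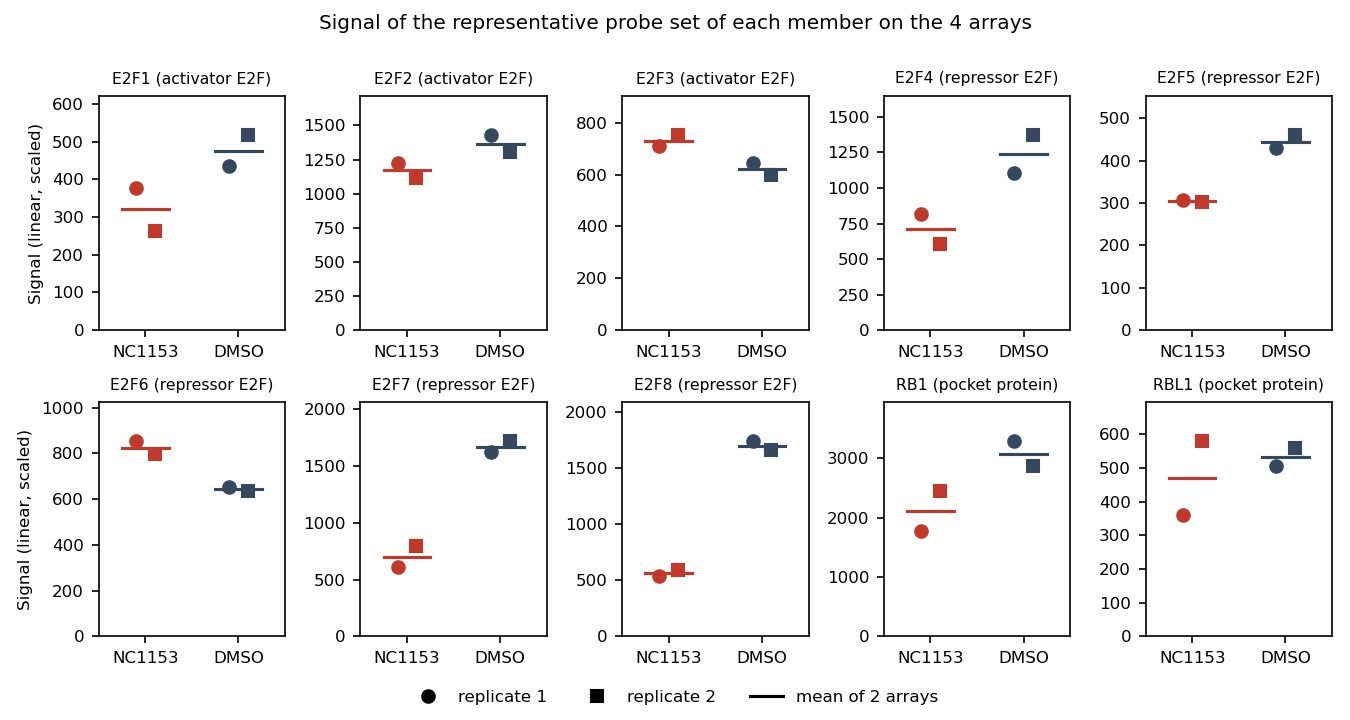
Signal (linear, scaled by the authors) of each member's representative probe set on the NC1153 (left, red) and DMSO (right, dark blue) arrays; circles are replicate 1, squares replicate 2 and bars the mean of 2 arrays. E2F8 and E2F7 lie at 539 to 791 on the NC1153 arrays, against 1621 to 1739 on the DMSO arrays, whereas the RBL1 arrays overlap.

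Among the activators none was called. E2F1, the founding member of the family, which drives replication genes and at high activity also death genes, had signals of 377 and 264 on NC1153 replicates 1 and 2, against 435 and 518 on DMSO replicates 1 and 2. The groups did not overlap, but the within-replicate changes were unequal, at -0.21 in replicate 1 and -0.97 in replicate 2. Its change was -0.59 ± 0.27 (SE; adjusted p = 0.325), with a 95% interval from -1.19 to 0.0088. The second E2F1 probe set, 2028_s_at, had 278 and 332 with NC1153, against 309 and 396 with DMSO, and these arrays overlapped (change -0.20, adjusted p = 0.816).

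E2F2, an activator whose loss in mice leaves T cells hyperproliferative, had 1222 and 1118 with NC1153, against 1431 and 1304 with DMSO. The NC1153 arrays lay below the DMSO arrays by a small margin, -0.23 within replicate 1 and -0.22 within replicate 2 (change -0.22, interval -0.59 to 0.14, adjusted p = 0.588). Its 2 other probe sets overlapped between the groups and went in different directions, with changes of -0.14 and 0.50. E2F3 had 710 and 753 with NC1153, against 646 and 599 with DMSO. Here the NC1153 arrays were the higher ones (change 0.23, interval -0.19 to 0.66, adjusted p = 0.645). Centring each array on the spiked-in controls moved every gene down alike, to a median change of -0.43 over all genes, and gave -0.20 for E2F3, which lies above that median. The second E2F3 probe set overlapped, with a change of -0.02.

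None of the 3 activators had an unadjusted p under 0.05 in limma. E2F1 came close to that limit (0.0528), beside 0.0456 for the repressor E2F5. No activator was called under any of the alternative settings of limma listed in the closing section. The 95% intervals of the change reach down to -1.19 for E2F1, -0.59 for E2F2 and -0.19 for E2F3, so they do not show that these transcripts stayed the same.

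Among the repressors the atypical pair E2F7 and E2F8 fell. E2F8 had signals of 539 and 591 on the NC1153 arrays, against 1739 and 1657 on the DMSO arrays. Both NC1153 values were far below both DMSO values, and each pair of replicates was close. Its mean was 565 ± 37.1 with NC1153 and 1698 ± 57.7 with DMSO (SD, n = 2 each), a 3.01-fold lower level (change -1.59 ± 0.17 SE, interval -1.97 to -1.21, adjusted p = 0.00223). Of all genes, 4.75% had a more negative change.

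E2F7, the other atypical repressor, which forms dimers with E2F8, had 606 and 791 with NC1153, against 1621 and 1715 with DMSO. The NC1153 arrays differed more from each other than the DMSO arrays did, but stayed clear of them, and the level was 2.41-fold lower (change -1.27 ± 0.18 SE, interval -1.68 to -0.85, adjusted p = 0.00818). A second, dimmer probe set, 241725_at, had 150 and 153 with NC1153, against 349 and 241 with DMSO. It went the same way without being called (change -0.94, adjusted p = 0.203). The authors' deposited table of RMA log2 values lists 2252 probe sets that passed their q-value limit, beside 54675 probe sets with deposited signals. Of the 21 member probe sets it holds 2, the representative ones of E2F7 and E2F8, and 8 of the 10 members are not listed. Whether member probe sets are listed more often than others was not tested. E2F7 had RMA log2 values of 7.19 and 7.88 with NC1153, against 8.88 and 8.92 with DMSO, in the authors' deposited table. The values of E2F8 in the authors' deposited table were 7.35 and 7.67 with NC1153, against 8.88 and 8.86 with DMSO. The group means of the authors' deposited table differed by -1.36 for each gene, and they come from the same 4 arrays as the signals.

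E2F4, the most abundant E2F protein of resting cells in many tissues, was lower on all of its probe sets, but the call depended on which was read. Its representative probe set 38707_r_at had 814 and 607 with NC1153, against 1106 and 1373 with DMSO, without overlap. The difference was wider within replicate 2 (-1.18) than within replicate 1 (-0.44), and the probe set was not called (change -0.81, interval -1.28 to -0.34, adjusted p = 0.0715). The other probe set, 202248_at, had 150 and 167 with NC1153, against 389 and 372 with DMSO. These arrays were tight within each group, and it was called lower (change -1.27, interval -1.92 to -0.61, adjusted p = 0.0477), close to the threshold. Of the 21 member probe sets, 3 were called lower and none higher, and of all probe sets 1.78% were called lower and 1.94% higher. The representative E2F4 probe set passed with the replicate number as a block (adjusted p = 0.0140), with spike-in centring (0.0447) and without DMSO replicate 1 (0.0399). The call of 202248_at was lost with spike-in centring (0.0556), quantile normalization (0.0568) and each array centred on its median (0.365).

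E2F5, a close relative of E2F4, had 306 and 303 with NC1153, against 429 and 461 with DMSO. Both groups were tight and did not overlap, and the change was -0.55 (interval -1.08 to -0.01, adjusted p = 0.301). Its second probe set, 222051_s_at, was dimmer than the array median on all 4 arrays, and its 2 NC1153 signals of 33.2 and 1.74 differed too widely to be read, against 46.2 and 55.7 with DMSO. E2F6, the polycomb-bound repressor, stood alone among the repressors in having higher NC1153 arrays, 853 and 797, against 652 and 634 with DMSO. The arrays did not overlap and the changes within the replicates were 0.39 and 0.33, but E2F6 was not called (change 0.36, interval -0.05 to 0.77, adjusted p = 0.397). With spike-in centring its change was -0.07, beside the same median of -0.43 over all genes.

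**Figure D2:**
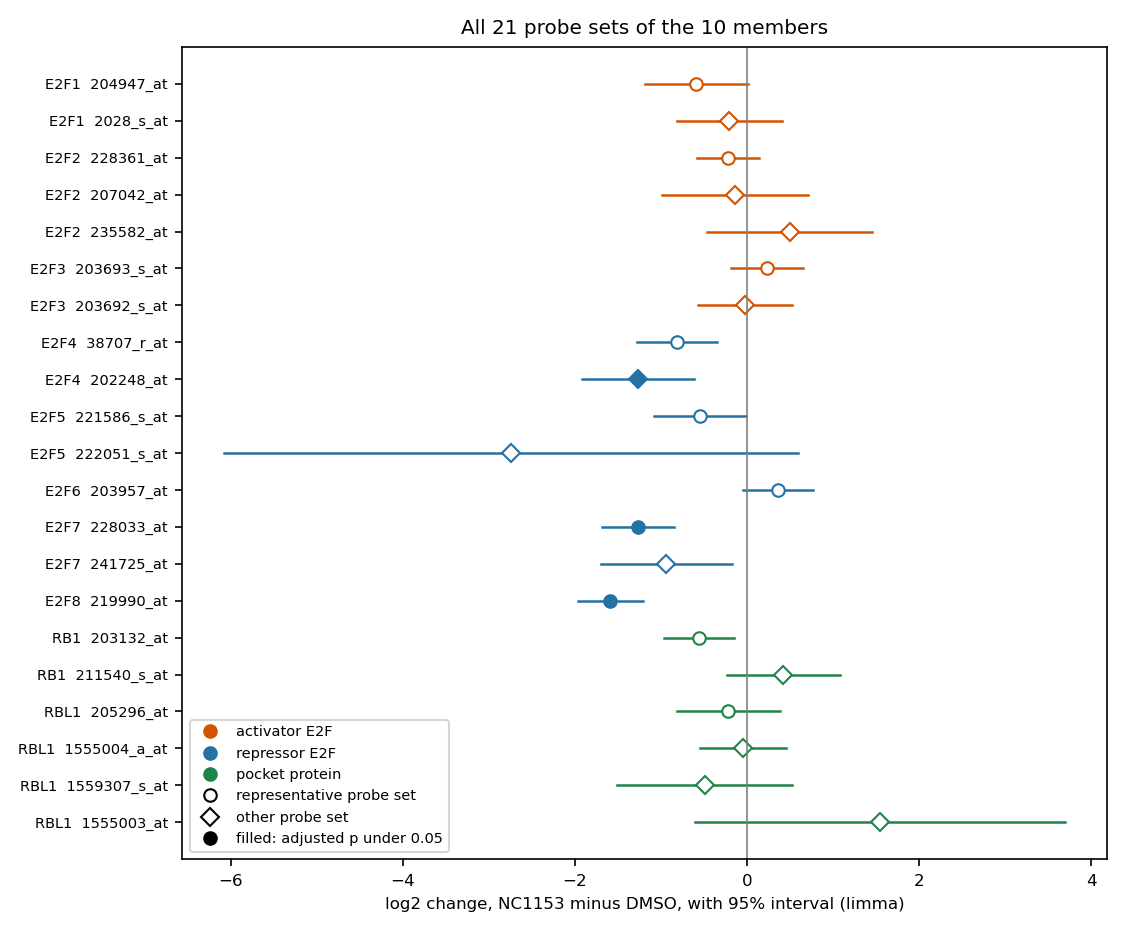
Log2 change of all 21 member probe sets (points) with 95% intervals from limma (lines), coloured by class; circles are representative probe sets, diamonds the others, and filled symbols passed an adjusted p of 0.05. The filled symbols are E2F8, E2F7 and 1 of 2 probe sets of E2F4, and the intervals of all activator probe sets include 0.

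Set side by side, the 3 activators had changes from -0.59 to 0.23 with a median of -0.22, and the 5 repressors from -1.59 to 0.36 with a median of -0.81. Within replicate 1 the medians were -0.21 for the activators and -0.49 for the repressors. Within replicate 2 they were -0.22 for the activators and -1.12 for the repressors. The repressors were not uniform: E2F7 and E2F8 had a median of -1.43, and E2F4, E2F5 and E2F6 one of -0.55. No activator was called and 2 of 5 repressors were, and whether the classes differ was not tested, since genes are not replicates of a class.

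Of the pocket proteins, RB1, the retinoblastoma tumour suppressor, had 1773 and 2448 with NC1153, against 3289 and 2867 with DMSO. The NC1153 arrays were the lower ones, but differed from each other by more than NC1153 replicate 2 did from DMSO replicate 2. The change of RB1 was -0.56 (interval -0.96 to -0.16, adjusted p = 0.148), with -0.89 in replicate 1 and -0.23 in replicate 2. It passed with the replicate block (adjusted p = 0.0429) and without NC1153 replicate 2 (change -0.79, adjusted p = 0.0331). Its second probe set, 211540_s_at, went the other way, with 485 and 378 with NC1153, against 400 and 255 with DMSO. These arrays overlapped (change 0.42, adjusted p = 0.567), so the 2 RB1 probe sets give no common direction.

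RBL1, or p107, a pocket protein that is itself an E2F target, had 361 and 579 with NC1153, against 504 and 558 with DMSO. The groups overlapped, the change was -0.21 (interval -0.81 to 0.38, adjusted p = 0.798), and without NC1153 replicate 1 it was 0.13. Of its 3 other probe sets, 1555004_a_at had 406 and 431 with NC1153, against 443 and 422 with DMSO, a change of -0.05. The remaining pair gave changes of -0.49 and 1.55, and the probe set with 1.55 was below the array median on all 4 arrays. RBL2, or p130, the pocket protein of resting cells, was read as a related gene. Its brighter probe set had 1854 and 2384 with NC1153, against 2483 and 1995 with DMSO, which overlapped (change -0.08, adjusted p = 0.908).

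**Figure D3:**
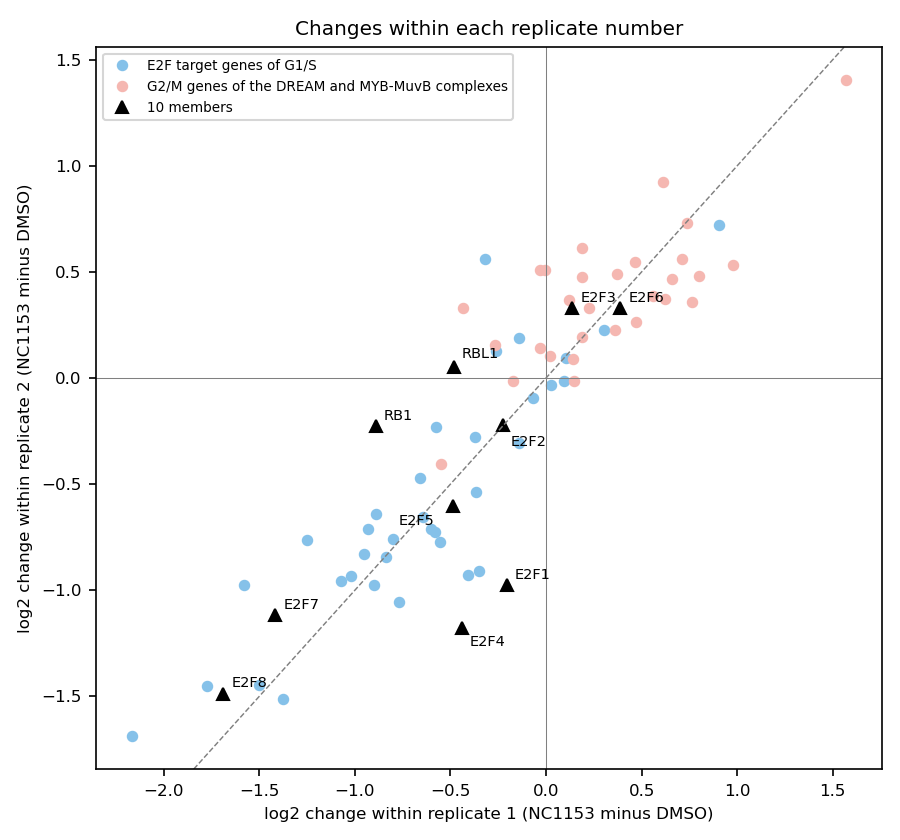
Log2 change within replicate 1 (x axis) against that within replicate 2 (y axis) for the 10 members (black triangles), 35 E2F target genes of G1/S (blue) and 29 G2/M genes (pink); the dashed line marks equal changes. E2F7 and E2F8 lie near the dashed line at the lower left, E2F1 and E2F4 have a wider negative change in replicate 2, and RB1 in replicate 1. RBL1 has a change of -0.48 in replicate 1 and of 0.053 in replicate 2.

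Genes that work with the members were read from 8 lists of related genes, beside 2.84% of all genes called lower and 3.09% higher. The first held 12 genes: E2F dimer partners, subunits of the MuvB core, the pocket protein RBL2, and MYBL1, MYBL2 and FOXM1. The MuvB core joins E2F4 and a pocket protein to form the repressive DREAM complex, or MYBL2 to activate mitotic genes. TFDP1, the main DNA-binding partner of E2F1 to E2F6, fell, and LIN37, a MuvB subunit needed for repression by DREAM, and TFDP2, the second DP partner, rose. For the other 9 the test was not passed, and the median of the list was 0.21. TFDP1 had 5778 and 5233 with NC1153, against 8531 and 8150 with DMSO. Its groups were well apart (change -0.60, adjusted p = 0.0373), and its 2 other probe sets had changes of -0.74 and -0.68, the first of them called. TFDP2 had 486 and 456 with NC1153, against 224 and 212 with DMSO, and the NC1153 arrays were the higher ones (change 1.11, adjusted p = 0.0465). Its 3 other probe sets had positive changes and none was called, and the brightest of them had 298 and 260 with NC1153, against 243 and 225 with DMSO (change 0.25, adjusted p = 0.778). LIN37 had 1245 and 1191 with NC1153, against 702 and 748 with DMSO (change 0.75, adjusted p = 0.0449), and its other probe set, below the array median on all 4 arrays, had a change of -0.62 (adjusted p = 0.898). The calls of TFDP2 and LIN37 were lost when any 1 of the 4 arrays was left out (adjusted p from 0.0841 to 0.136 for TFDP2 and from 0.0630 to 0.234 for LIN37), with quantile normalization and with spike-in centring. That of TFDP1 was lost without DMSO replicate 1 (0.349) or DMSO replicate 2 (0.184).

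The kinases that switch off pocket proteins, and their inhibitors, moved in both directions. Of 12 measured genes, CDK6 and CCND2 fell, CDKN2B and CDKN1B rose, and 8 did not pass (list median -0.24). CDK6, a catalytic partner of D-type cyclins, had 4420 and 4536 with NC1153, against 8640 and 7236 with DMSO (change -0.82, adjusted p = 0.0146), and both of its next brightest probe sets were also called lower. The other 4 CDK6 probe sets were not called, and the brightest of them had a change of -0.24 (adjusted p = 0.674). CCND2, the D-type cyclin induced by interleukin-2, had 11228 and 10724 with NC1153, against 17748 and 16890 with DMSO (change -0.66, adjusted p = 0.0234), and its 3 other probe sets had changes of -0.41, -1.76 and -0.98 without being called. In both genes the NC1153 arrays were the lower ones. CDKN2B, which encodes the CDK4 and CDK6 inhibitor p15, had 615 and 481 with NC1153, against 191 and 148 with DMSO. Its NC1153 arrays were 3.24-fold above the DMSO arrays on average (change 1.69, adjusted p = 0.0143). The other CDKN2B probe set, below the array median on all 4 arrays, was not called (change 0.34, adjusted p = 0.942). CDKN1B, which encodes p27, had 5322 and 5248 with NC1153, against 3537 and 3383 with DMSO (change 0.61, adjusted p = 0.0340). With spike-in centring the calls of CDKN2B (adjusted p = 0.0896) and CDKN1B (0.701) were lost. Without DMSO replicate 1 those of CDK6 (0.135), CCND2 (0.319) and CDKN1B (0.194) were lost, without DMSO replicate 2 those of CCND2 (0.169) and CDKN1B (0.253), and without NC1153 replicate 1 those of CDKN2B (0.0904) and CDKN1B (0.0602).

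Genes of DNA replication that E2F factors are known to drive were read as well. Of 35 measured G1/S target genes, 17 fell, MCM5 rose and 17 did not pass, with a list median of -0.66. Of all genes, 2.84% were called lower and 3.09% higher. Both NC1153 arrays lay below both DMSO arrays for 27 of the 35 targets, against 23.8% of all genes. They lay above both DMSO arrays for 3 targets, against 24.5% of all genes. The list was chosen with a like result of these data known and is not independent support. UNG, the uracil-removing repair glycosylase, had 853 and 1034 with NC1153, against 3825 and 3331 with DMSO, a change of -1.93 (adjusted p = 9.4e-04). CCNE2, the cyclin of CDK2, had 823 and 896 with NC1153, against 2817 and 2450 with DMSO, a change of -1.61 (adjusted p = 0.00172). The NC1153 arrays of both genes were close together and well below the DMSO arrays. MCM7, a subunit of the replicative helicase, had 3035 and 3552 with NC1153, against 8580 and 9682 with DMSO (change -1.47, adjusted p = 0.00166). UHRF1, which brings DNA methylation to new DNA, had 2910 and 2583 with NC1153, against 7554 and 7360 with DMSO (change -1.44, adjusted p = 0.00134). These 2 were likewise separated by more than the spread between replicates. MCM5, another helicase subunit, was the exception, with 9609 and 9425 with NC1153, against 5141 and 5715 with DMSO (change 0.81, adjusted p = 0.0114). Its second probe set was also called higher (0.72), and the call was lost with spike-in centring (0.380) and without DMSO replicate 1 (0.111). Without DMSO replicate 1 the number of falling targets was 11.

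An E2F word was present in the promoter entries of 20 of the 32 G1/S targets with an entry, of 11 of the 15 that fell and of 9 of the 17 that were not called, a difference that was not tested. Shown for 3 of the targets named above and for TFDP1, with the word in capitals, these are:
UNG, chr12:109098083-109098142, plus strand: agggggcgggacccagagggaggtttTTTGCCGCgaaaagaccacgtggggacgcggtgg
MCM7, chr7:100101373-100101432, minus strand: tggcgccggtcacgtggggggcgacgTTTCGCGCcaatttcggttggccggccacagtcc
UHRF1, chr19:4909461-4909520, plus strand: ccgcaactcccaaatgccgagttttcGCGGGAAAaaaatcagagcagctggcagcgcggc
TFDP1, chr13:113584607-113584666, plus strand: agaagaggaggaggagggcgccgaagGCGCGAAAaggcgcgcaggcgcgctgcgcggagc

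The G2/M genes that DREAM holds silent and that MYBL2 with MuvB later activates were read in the same way. Of 29 measured, 6 rose, against 3.09% of all genes called higher. None fell, against 2.84% of all genes called lower, and 23 did not pass, with a list median of 0.33. Among those called, CDC25C, the phosphatase that activates CDK1, had 1426 and 1295 with NC1153, against 480 and 489 with DMSO, with tight replicates in both groups (change 1.49, adjusted p = 0.00368). A second CDC25C probe set had 318 and 431 with NC1153, against 166 and 264 with DMSO, and was not called (change 0.82, adjusted p = 0.256). The remaining one, below the array median on all 4 arrays, had a change of -0.56. HMMR, a spindle protein, had 9546 and 11174 with NC1153, against 6237 and 5883 with DMSO (change 0.77, adjusted p = 0.0171). KIF23, a kinesin of cell division, had 2264 and 1824 with NC1153, against 1151 and 1260 with DMSO (change 0.76, adjusted p = 0.0416). In both, the NC1153 arrays were the higher ones. TTK, a spindle checkpoint kinase, had 5854 and 6152 with NC1153, against 3507 and 3705 with DMSO (change 0.74, adjusted p = 0.0169). The count of rising genes fell when NC1153 replicate 1, DMSO replicate 1 or DMSO replicate 2 was left out, which leaves 1 array in a group. None was called with spike-in centring, where the median change of all genes was -0.43. Shares of all genes called higher are not given for these settings. Whether the count moved with the number of calls among all genes was therefore not tested.

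The CHR word TTTGAA, letters of the element that MuvB binds, was searched on both strands of these promoters and was held by 16 of the 24 with an entry, against 18.2% of all genes with an entry and 15.2% of all entries. A match is a description and not a bound site. None of the 4 called genes with an entry held an E2F word, and all 4 held the CHR word. Of the 20 genes with an entry that were not called, 3 held an E2F word and 12 the CHR word. Whether called and not called genes differ was not tested. The CHR word is shown in capitals for 3 of the called genes, and in HMMR it occurs as 2 adjoining copies:
CDC25C, chr5:138331802-138331861, minus strand: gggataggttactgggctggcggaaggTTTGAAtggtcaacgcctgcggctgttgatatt
HMMR, chr5:163460580-163460639, plus strand: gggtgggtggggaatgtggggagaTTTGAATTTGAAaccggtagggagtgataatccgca
KIF23, chr15:69414267-69414326, plus strand: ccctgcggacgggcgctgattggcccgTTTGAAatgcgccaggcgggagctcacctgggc

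**Figure D4:**
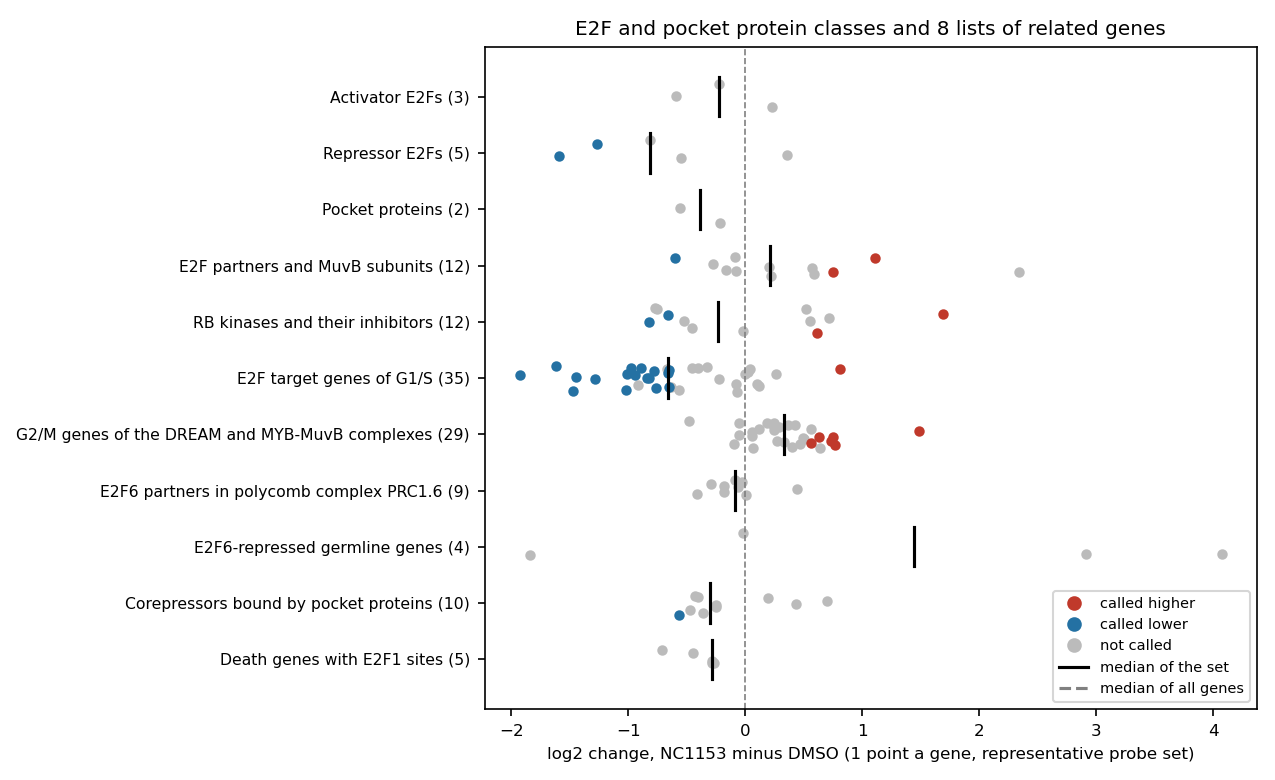
Log2 change (x axis) of the representative probe set of each member by class and of each measured gene of the 8 lists; red points were called higher, blue lower and grey not called, black bars are medians and the dashed line is the median of all genes. The G1/S targets lie mostly to the left (17 called lower, 1 higher) and the G2/M genes mostly to the right (6 called higher).

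An unadjusted p under 0.05 in limma was reached by 4 of 12 E2F partner and MuvB genes and 10 of 12 kinases and inhibitors. It was also reached by 25 of 35 G1/S targets and 17 of 29 G2/M genes, against 20.3% of all genes. The remaining lists held few calls. Of 9 measured partners of E2F6 in its polycomb complex PRC1.6, limma called 0, and 2 had an unadjusted p under 0.05, a share to be read beside the 20.3% of all genes (median -0.08). CBX3, the HP1 protein of that complex, had 12915 and 15175 with NC1153, against 19750 and 17481 with DMSO (change -0.41, adjusted p = 0.181), and MAX, its E-box-binding part, had a change of -0.18 (adjusted p = 0.613). Of 4 measured germline genes that E2F6 is known to keep silent, limma called 0, with changes from -1.84 to 4.08 (median 1.45). The 2 positive changes were those of MAEL and SLC25A31. Both genes had an unadjusted p under 0.05 in limma, and both were below the array median on all 4 arrays. STAG3, the meiotic cohesin subunit, had 211 and 64.6 with NC1153, against 141 and 99.3 with DMSO, and these overlapped. MAEL, a germline factor, had 31.3 and 51.6 with NC1153, against 5.19 and 5.49 with DMSO (change 2.91, adjusted p = 0.242), all below the median of all signals, 72.3. SMC1B, another cohesin gene, which has a higher mean log2 signal than MAEL, had a change of -1.84 (adjusted p = 0.542).

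Of 10 measured corepressors that pocket proteins recruit, the histone deacetylase gene HDAC1 fell and 9 did not pass (median -0.30). An unadjusted p under 0.05 in limma was reached by 6 of the 10, against 20.3% of all genes. Both NC1153 arrays lay below both DMSO arrays for 7 of the 10, against 23.8% of all genes. HDAC1 had 5295 and 5018 with NC1153, against 7987 and 7254 with DMSO (change -0.56, adjusted p = 0.0491), and the call was lost when any 1 array was left out (adjusted p from 0.0549 to 0.506). Of 5 measured death genes with E2F1 sites, limma called 0, and 0 had an unadjusted p under 0.05 (median -0.28). PMAIP1, which encodes NOXA, had 1965 and 2358 with NC1153, against 2648 and 2540 with DMSO (change -0.27, adjusted p = 0.456). APAF1, the core of the apoptosome, had a change of -0.28 (adjusted p = 0.551). For these 2 genes the NC1153 arrays were the lower ones by less than the test could separate.

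The member calls moved with the processing, and so did the share of all genes called lower. That share was 2.84% with quantile normalization, 3.12% with log2 of the signal plus 50 and 2% without NC1153 replicate 1, and E2F7 and E2F8 were the 2 members called in each. It was 2.14% without DMSO replicate 2, with the same 2 members. With E2F4 as the third member, it was 3.08% with spike-in centring, 1.86% without DMSO replicate 1 and 3.41% with the probe set of lowest p. RB1 was the third member without NC1153 replicate 2, where the share was 3.8%, and E2F4 and RB1 both joined with the replicate block, where it was 5.18%. No member was called with each array centred on its median, where the share was 0.0809%, nor without a trend or with ordinary least squares, where it was 0%.

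**Figure D5:**
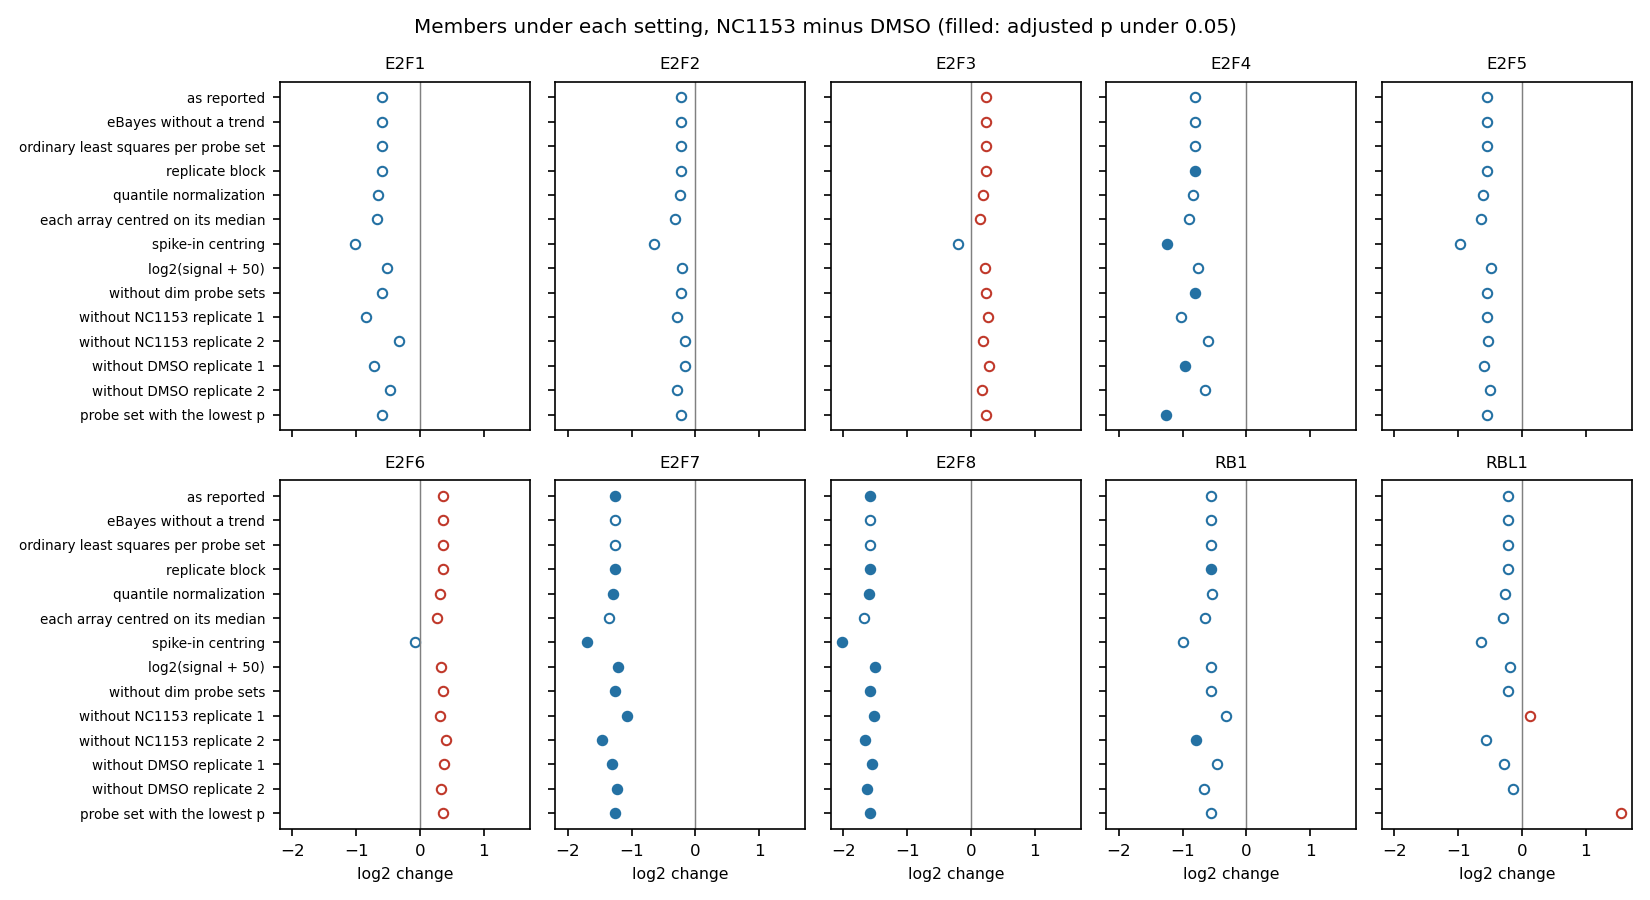
Log2 change (x axis) of each member under the reported fit and 13 alternative settings (rows); blue is negative, red positive, and filled points passed an adjusted p of 0.05. E2F7 and E2F8 stayed negative throughout and passed in 10 of the 13 alternatives, whereas E2F3 and E2F6 crossed 0 with spike-in centring, which moved the median of all genes to -0.43.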

How the data were processed

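RNA of 4 samples, grouped by their titles, was measured on HG-U133 Plus 2.0 arrays. The authors deposited intensity values on a linear scale for 54675 probe sets, whose software is not given in the sources used here. A smaller table that the authors deposited holds RMA log2 values and raw p-values, and per the file headers it was filtered on Storey q-values after limma. It served as a comparison. Without 62 controls, log2 of the intensity was tested two-sided (limma 3.58.1 under R 4.3.3; lmFit, then eBayes with a trend; 2 residual and 7.27 prior degrees of freedom). The number of arrays limits the precision. Gene names come from the platform annotation and were updated by gene identifier from RefSeq (GRCh38.p14). Of the probe sets tested, 41091 had 1 gene, 1801 several and 11721 none, and 41037 matched the newer table. Members and lists were chosen with earlier results of these data known. Of each list, up to 4 called genes with the largest change in each direction were named, or the 2 with the highest mean linear signal where none was called. List genes without a probe set of 1 gene were not analysed here. In simulated data of 54613 probe sets the same fit called 6% of changes of 1 and 37% of changes of 2 on the log2 scale, and 2.27% of its calls were false. Only 100 probe sets changed by each size there, all from the brighter part. In the real data 1062 probe sets were called higher and 971 lower. The adjusted p depends on how many probe sets change, so the simulated shares do not carry over to these data. The 13 alternatives changed the variance model, normalization, log offset, dim filter, probe set, replicate block or arrays.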

Additional observations from a re-analysis of the deposited data

How the results depend on the processing

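Members called lower numbered 2 as reported, 0 without a trend in the prior variance, 0 with ordinary least squares, 0 with each array centred on its median and 4 with the replicate block. The other alternatives gave 2 or 3, and none of the 13 called a member higher. E2F7 and E2F8 lost the call in the 3 settings that gave 0 (adjusted p from 0.257 to 0.464 for E2F7 and from 0.130 to 0.456 for E2F8). In those 3 settings 0 of the G1/S targets were called lower and 0 of the G2/M genes higher, and spike-in centring also gave 0 G2/M genes. Leaving out single arrays gave 2 to 3 members, 11 to 17 falling targets and 1 to 7 rising G2/M genes. The replicate block gave 22 falling targets and 9 rising G2/M genes. No share of all genes called higher is given for these settings, so the counts of rising genes stand without that background. The array names in the header of the deposited RMA table hold a code that equally numbered arrays share, whose meaning no source used here states, so a shared batch per replicate number was possible. Equally numbered arrays, as deviations from the mean of their group, had a correlation of 0.055 across all probe sets and 0.12 across the brighter ones. The reported fit has no block. With spike-in centring the class medians were -0.65 for activators, -1.24 for repressors and -0.82 for pocket proteins, beside -0.43 for all genes. The median over all probe sets of a gene gave -1.10 for repressors and -0.10 for pocket proteins, and leaving out single arrays gave -1.02 to -0.60 for repressors. Signs of genes that were not called turned for E2F3 (-0.20) and E2F6 (-0.072) with spike-in centring, which lowered all genes alike, for RBL1 with its probe set of lowest p (1.55), and for STAG3 with log2 of the signal plus 50 (0.036). They also turned as single arrays were left out, where RBL1 ranged between -0.56 and 0.13 and STAG3 between -0.87 and 0.84. The cause of the other shifts was not tested. Signals below the array median, such as those of MAEL, limit what can be read.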
